A study of Mus musculus with 27 samples.

Results

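Cytoplasmic polyadenylated RNA of cells depleted of Ptbp1 and Ptbp2 together (the double knockdown, labelled siPTBP1+siPTBP2) was compared with that of cells given a control siRNA against eGFP (labelled siGFP). The comparison took 6 of the 27 libraries of the series, chosen by the treatment, the fraction CY (cytoplasm) and the replicate number in their names, with 3 libraries on each side. A gene entered with at least 1 TPM (a transcript abundance corrected for gene length and scaled to a fixed total in each library) in at least 3 of those 6 libraries, and 13078 of the 53379 genes listed did so. All cells were E14, an established mouse embryonic stem cell line, kept on gelatin in medium with LIF, a cytokine that holds these cells undifferentiated. Every culture, the siGFP controls included, was transfected with siRNA, transfected again with the same siRNA after 24 h and harvested at 48 h. The nucleoplasm (NP) and chromatin (CH) of the same 2 treatments and the cytoplasm of cells that received Ptbp1 siRNA alone (siPTBP1 CY), with 3 libraries each, are used here only beside the cytoplasmic values. The series describes the replicates as biological, and the knockdowns were made in 1 cell line by transient transfection.

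PTBP1, the polypyrimidine tract binding protein, binds pyrimidine-rich RNA beside exons and represses many exons that neurons and muscle cells include. It also represses its own paralog Ptbp2, whose RNA is spliced to an unproductive form where PTBP1 is abundant. In non-neuronal mouse cells PTBP1 is known to hinder the splicing of introns near the 3′ ends of several presynaptic genes, whose RNA then stays in the nucleus and is degraded there. Cytoplasmic RNA is the pool open to translation.

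Each of the 6 cytoplasmic libraries held 11837 to 13478 genes at 1 TPM or more. Mitochondrially encoded RNA took 0.0461% to 0.0960% of the TPM in double knockdown cytoplasm and 0.0511% to 0.111% in siGFP cytoplasm. Double knockdown replicate 1 stood apart from the other cytoplasmic libraries, with a score of 95.6 on a first principal component that held 63.2% of the variance. The component followed the replicate number: siGFP and siPTBP1 replicate 1 scored 40.8 and 39.9, and the replicate 2 and 3 libraries -35.6 to -22.6. In the replicate 1 pair the difference between double knockdown and siGFP moved with GC content: its median was -0.57 on the log2 scale over the 3272 genes with the lowest transcript GC content and 0.48 over the 3267 with the highest. The same medians were 0.20 and 0.08 in the replicate 2 pair and -0.07 and 0.14 in the replicate 3 pair. Genes were tested with limma on log2(TPM + 1), with replicate number as a block, and are called here at a Benjamini-Hochberg adjusted p under 0.05, so every adjusted p below is from limma. A log2 difference is double knockdown minus siGFP on that scale, with its standard error (SE), and it understates the change of low genes. Where a second adjusted p is given, it comes from the fit without the block.

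Ptbp1 RNA fell in the cytoplasm to 25.9% of its siGFP mean. It stood at 200.2, 114 and 113 TPM in the double knockdown libraries, replicates 1 to 3 in order, against 502, 534 and 611 TPM in siGFP (142 ± 50.1 and 549 ± 56.2, SD, n = 3 each). The groups did not overlap, and the least depleted library was replicate 1. The log2 difference was -1.99 (SE 0.19, adjusted p = 4.36e-07, and 0.00131 without the block). Ptbp2, the neuronal paralog, was far less abundant, at 1.45, 7.29 and 7.55 TPM in the double knockdown and 3.52, 15 and 15.4 TPM in siGFP. Replicate 1 was the lowest library of each group, so the groups overlapped while every pair fell. Its log2 difference was -0.93 (SE 0.16, adjusted p = 0.000641), and the adjusted p without the block was 1.00. Ptbp3, the paralog of blood cells, which no siRNA was directed against, had 2.28, 10.5 and 7.22 TPM in the double knockdown and 3.67, 9.13 and 9.24 TPM in siGFP, a log2 difference of -0.21 (SE 0.20, adjusted p = 0.575).

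Over all genes tested, 416 were called higher and 258 lower in double knockdown cytoplasm, 5.15% of the genes (3.18% higher and 1.97% lower). The median log2 difference was 0.72 among those higher and -0.82 among those lower, and -0.0002 over all genes. Of those called, 70 were higher and 71 were lower by at least 1 log2 unit. The pairs pointed the same way in all 3 replicates for 414 of the 416 and 254 of the 258. The libraries of the 2 groups did not overlap for 335 of the 416 and 125 of the 258, whereas 11.4% of all genes tested (8.94% higher, 2.43% lower) did not overlap. Without the block 38 genes were called higher and 29 lower. After the GC correction, which was chosen after seeing the data, 454 were higher and 451 lower, so the share of higher genes among those called was 50.2% against 61.7%. Fits were also made with all libraries of 1 replicate number left out, in every treatment and fraction. Then 501 were higher and 277 lower without replicate 1, 89 and 62 without replicate 2, and 47 and 32 without replicate 3. The balance of directions rested on single libraries: 157 were higher and 196 lower without siGFP replicate 1 (44.5% higher), and 312 were higher and 385 lower without double knockdown replicate 2 (44.8% higher).

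**Figure D1:**
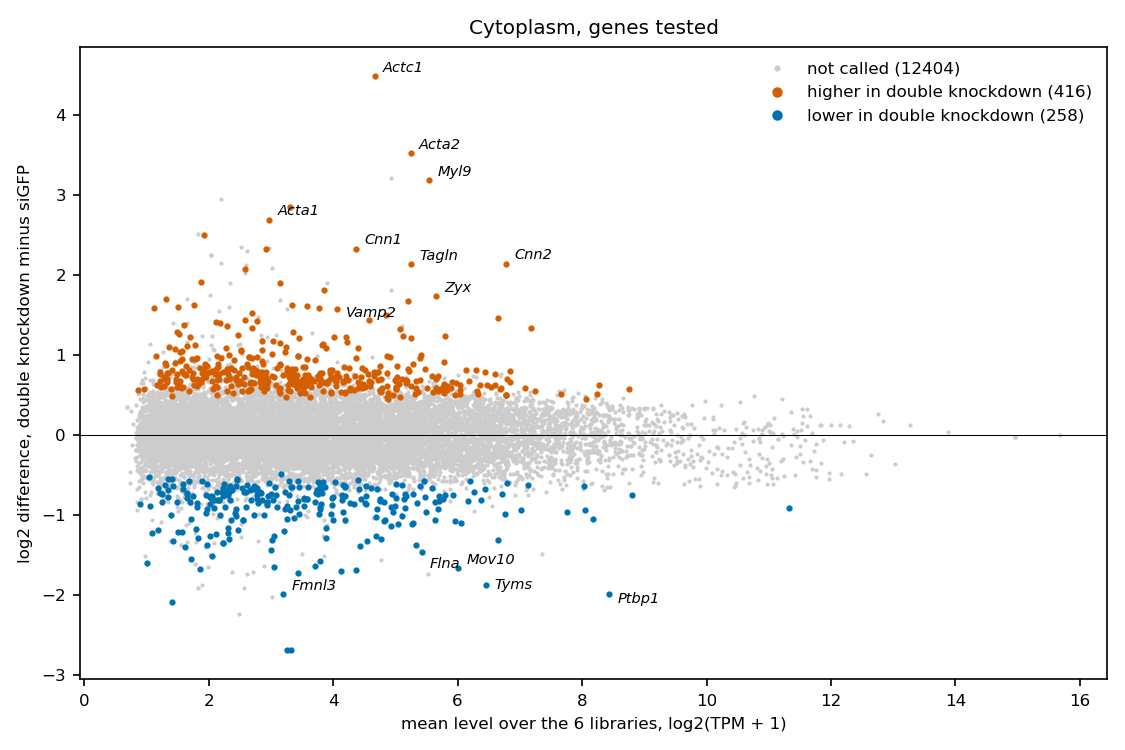
The log2 difference of each of the 13078 genes (double knockdown minus siGFP, vertical axis) against its mean level over the 6 cytoplasmic libraries as log2(TPM + 1). The 416 genes called higher are orange, the 258 called lower are blue and the others grey; actin, myosin light chain and calponin genes are among those at the top and Ptbp1 is near the bottom right.

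The 3 largest increases were in genes of smooth and striated muscle. Of 23 tested members of a list of 30 contractile genes, 10 were higher, 3 were lower and 10 were not called, with a median log2 difference of 0.36 against -0.0002 over all genes. The 3 muscle actins, which form the thin filament, were among the 10. Actc1, cardiac alpha-actin, had 21.9, 50.1 and 71.6 TPM in double knockdown cytoplasm, against 0.94, 0.36 and 1.84 TPM in siGFP. No double knockdown library came near the siGFP range, and replicate 1 was the lowest of the 3. The ratio of the group means was 45.7, and the log2 difference of 4.49 (SE 0.28) had an adjusted p of 1.71e-10, and of 0.000115 without the block. Acta2, smooth muscle alpha-actin, stood at 30.2, 61.1 and 116 TPM in the double knockdown and at 4.93, 2.37 and 6.46 TPM in siGFP, again without overlap. Its log2 difference was 3.52 (SE 0.41, adjusted p = 2.82e-05, and 0.00106 without the block). Acta1, skeletal alpha-actin, was lower throughout, at 14.7, 6.36 and 16.9 TPM in the double knockdown and 1.57, 0.56 and 0.92 TPM in siGFP. Its log2 difference of 2.69 (SE 0.47, adjusted p = 0.00189) was not called without the block (adjusted p = 0.451). The coding sequences of the actin genes are nearly alike, so how reads were divided among them is uncertain.

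Myl9, the regulatory light chain of smooth muscle myosin, had 66.7, 61.1 and 119 TPM in the double knockdown, against 12.3, 3.61 and 9.84 TPM in siGFP. The lowest double knockdown library was thus well above the highest control, and the log2 difference was 3.19 (SE 0.27, adjusted p = 3.36e-08, and 0.00311 without the block). The calponins Cnn1 and Cnn2, which bind actin and restrain myosin, rose with it. Cnn2 stood at 209.5, 132 and 194 TPM in the double knockdown and 44.4, 31.8 and 41.7 TPM in siGFP, a log2 difference of 2.14 (SE 0.24, adjusted p = 2.65e-06, and 0.0438 without the block). Cnn1 had 26.1, 29.2 and 45.4 TPM in the double knockdown and 6.15, 6.24 and 4.78 TPM in siGFP, a log2 difference of 2.33 (adjusted p = 0.000145, and 0.0636 without the block). Tagln, transgelin, a further calponin relative, was at 52.4, 46.2 and 83.3 TPM in the double knockdown and 20.2, 7.42 and 12.9 TPM in siGFP, a log2 difference of 2.14 (adjusted p = 0.000462, and 0.209 without the block). Each of these genes was higher in all 3 pairs with no overlap between the groups. Myl3, a ventricular myosin light chain, was low but steady, at 4.05, 4.34 and 3.88 TPM in the double knockdown and 1.03, 0.72 and 0.29 TPM in siGFP, a log2 difference of 1.62 (adjusted p = 1.55e-05, and 0.00104 without the block).

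The tropomyosins, which lie along the actin filament and are textbook substrates of PTBP1 splicing control, moved in opposite directions. Tpm1 had 74.9, 240.2 and 328 TPM in the double knockdown and 55.3, 72.7 and 88.3 TPM in siGFP. The replicate 1 library of the double knockdown lay inside the siGFP range, and the log2 difference of 1.34 (SE 0.31, adjusted p = 0.00994) was 0.126 in adjusted p without the block. Tpm2 had 11.5, 20.1 and 19.6 TPM in the double knockdown, below all of its siGFP values of 24.9, 42.7 and 32.0 TPM, a log2 difference of -0.93 (SE 0.23, adjusted p = 0.0156, and 0.190 without the block). Each tropomyosin call was lost without any of 3 single libraries, with adjusted p up to 0.0705 for Tpm1 and 0.0846 for Tpm2. The other members called were Csrp1, Tpm3 and Actg1, outside the naming rule and picked after their values were seen. Actg1, cytoplasmic gamma-actin, is an abundant RNA and had 2301, 1399 and 1715 TPM in the double knockdown against 3201, 3218 and 3530 TPM in siGFP (log2 difference -0.91, adjusted p = 0.0240). Actb, cytoplasmic beta-actin, had 2342, 1913 and 2066 TPM in the double knockdown and 1915, 1964 and 2371 TPM in siGFP, a log2 difference of 0.02 (SE 0.18). Without the block the list had 5 members higher and 0 lower, and with the GC correction 11 higher and 3 lower. With all replicate 3 libraries left out 5 were higher and 0 lower, and without siGFP replicate 2 or 3 the members lower were 0. Master regulators of muscle were near the floor: Myod1 had 0.62 to 0.89 TPM in the double knockdown and 0.13 to 0.28 TPM in siGFP, Myog stayed under 0.17 TPM in every library, and neither entered the test. The list of primitive streak, mesoderm and muscle markers, which holds both, summed to 11.8 to 15.6 TPM in the double knockdown and 9.34 to 10.6 TPM in siGFP, without overlap, with 0 of its 4 tested members called. The part of such cells in the contractile result was not tested.

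Srf, serum response factor, the transcription factor that binds CArG boxes in muscle and cytoskeletal promoters, was itself higher. It had 54.9, 40.3 and 49.1 TPM in double knockdown cytoplasm and 21.2, 18.1 and 19.6 TPM in siGFP, without overlap. The log2 difference was 1.24 (SE 0.22, adjusted p = 0.000787, and 0.260 without the block). Zyx, zyxin, a focal adhesion protein whose gene is a known SRF target, stood at 67.3, 66.5 and 97.2 TPM in the double knockdown and 22.1, 22.5 and 21.3 TPM in siGFP, a log2 difference of 1.74 (SE 0.23, adjusted p = 3.21e-05, and 0.0173 without the block). Immediate early genes, which serum induces partly through SRF, showed no common direction: of 12 tested members of the list that holds Srf, 3 were higher and 1 lower, and 0 were called without the block. Fos had 1.13 to 1.74 TPM in the double knockdown and 1.27 to 2.07 TPM in siGFP, and Egr1 had 10.04 to 12.8 TPM in the double knockdown and 12.0 to 14.8 TPM in siGFP. Neither was called. Ier2 and Jun were called higher by 0.51 and 0.52 log2 units, but not with the GC correction (adjusted p = 0.125 and 0.0648), and they lost their calls without any of 5 and any of 4 single libraries.

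The promoter windows of 5 genes that were higher and of 1 that was lower are shown as examples that hold the CArG box, with the box in capitals. Myl3 and Vamp1, called higher, and Lima1 and Tyms, called lower, also held a box and are not shown. The balance of directions among the windows shown therefore carries no meaning. Each runs 5′ to 3′ on the strand of its gene, from 250 bases before to 50 after the RefSeq start site (GRCm38.p6, the assembly of mm10). The windows are chr2:114052826-114053125, minus strand, for Actc1; chr2:156775214-156775513, plus strand, for Myl9; chr8:123894726-123895025, minus strand, for Acta1; chr10:79988350-79988649, plus strand, for Cnn2; chr17:46556113-46556412, minus strand, for Srf; and chr11:120348446-120348745, minus strand, for Actg1.
Actc1: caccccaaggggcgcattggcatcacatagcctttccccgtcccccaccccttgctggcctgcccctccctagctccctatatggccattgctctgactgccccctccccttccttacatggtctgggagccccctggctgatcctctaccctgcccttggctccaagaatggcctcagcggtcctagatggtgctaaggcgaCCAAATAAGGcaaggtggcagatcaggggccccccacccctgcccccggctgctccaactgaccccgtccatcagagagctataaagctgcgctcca
Myl9: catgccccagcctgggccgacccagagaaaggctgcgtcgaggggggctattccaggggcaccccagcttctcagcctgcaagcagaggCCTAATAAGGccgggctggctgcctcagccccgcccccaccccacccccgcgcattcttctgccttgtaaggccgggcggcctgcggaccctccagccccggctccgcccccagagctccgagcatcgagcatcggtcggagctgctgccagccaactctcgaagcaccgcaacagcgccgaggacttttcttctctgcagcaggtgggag
Acta1: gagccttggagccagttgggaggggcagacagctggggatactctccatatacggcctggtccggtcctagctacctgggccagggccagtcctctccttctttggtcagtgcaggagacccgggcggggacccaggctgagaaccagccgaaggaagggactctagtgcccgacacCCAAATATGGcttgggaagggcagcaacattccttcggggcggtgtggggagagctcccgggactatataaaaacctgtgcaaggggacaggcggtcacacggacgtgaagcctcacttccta
Cnn2: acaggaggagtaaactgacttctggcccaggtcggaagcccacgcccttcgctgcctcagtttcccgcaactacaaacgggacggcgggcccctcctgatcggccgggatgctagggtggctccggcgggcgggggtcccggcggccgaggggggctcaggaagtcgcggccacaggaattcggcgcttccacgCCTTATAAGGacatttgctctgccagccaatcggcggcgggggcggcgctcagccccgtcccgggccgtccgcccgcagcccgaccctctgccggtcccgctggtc
Srf: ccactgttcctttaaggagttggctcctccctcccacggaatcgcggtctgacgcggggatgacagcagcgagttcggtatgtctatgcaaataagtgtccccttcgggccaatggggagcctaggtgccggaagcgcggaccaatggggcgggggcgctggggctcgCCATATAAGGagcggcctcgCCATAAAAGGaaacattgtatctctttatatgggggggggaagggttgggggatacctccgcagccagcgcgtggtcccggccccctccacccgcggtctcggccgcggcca
Actg1: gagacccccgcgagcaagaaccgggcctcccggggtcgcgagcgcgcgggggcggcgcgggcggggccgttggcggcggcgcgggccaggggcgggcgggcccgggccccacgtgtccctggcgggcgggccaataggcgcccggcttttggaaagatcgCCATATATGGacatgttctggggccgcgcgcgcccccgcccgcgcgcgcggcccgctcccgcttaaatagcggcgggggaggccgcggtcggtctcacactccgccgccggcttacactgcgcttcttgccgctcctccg
The box began 47 bases before the start site in Actc1, 161 in Myl9, 73 in Acta1, 56 in Cnn2 and 90 in Actg1, and Srf held 2 boxes that began 82 and 62 bases before it. A CArG box is a palindromic pattern, so each match counts for either strand. Among tested genes with a window, 151 of 9412 (1.60%) held a box, and 488 of 27025 RefSeq genes did (1.81%). Of genes called higher with a window, 8 of 321 (2.49%) held one, and of genes called lower 7 of 185 did (3.78%), among them Actg1, Lima1 and Tyms. Of those higher by at least 1 log2 unit, 6 of 44 (13.6%) held one: Actc1, Myl9, Acta1, Myl3, Cnn2 and Srf. That cut was made on the higher side only. Lima1 and Tyms differed by -1.70 and -1.87, so the 13.6% has no counterpart among lower genes and shows no preference for a direction. Within the contractile list, 5 of the 9 members called higher that had a window held a box, and 2 of the other 18. Acta2, Cnn1, Csrp1 and Tpm1 of that list had none in the window, and neither did Zyx, named above as a known SRF target. Myl7, which had one 61 bases before its start, was level, with a log2 difference of 0.01 (SE 0.15). A match in these letters is no evidence that a factor binds there.

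**Figure D2:**
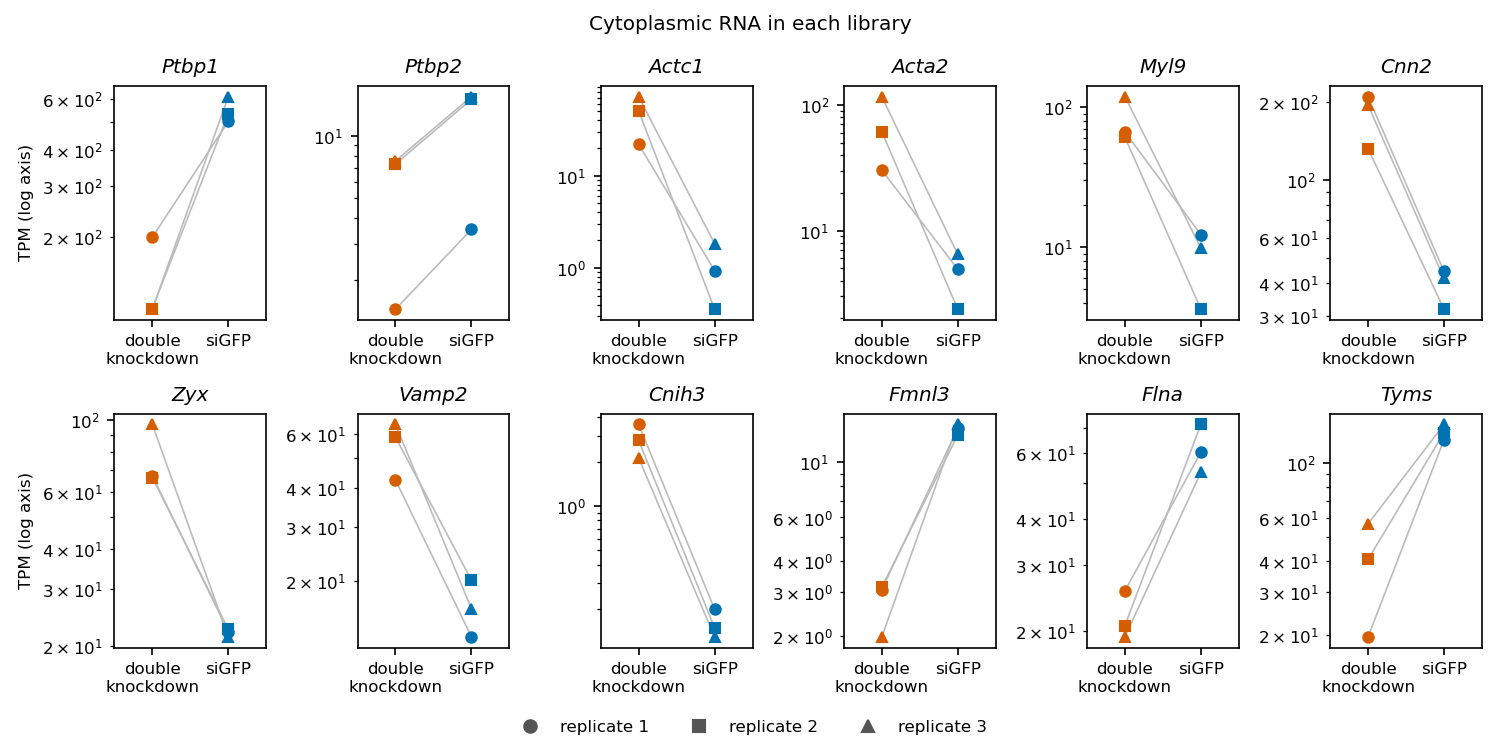
TPM of 12 genes in each cytoplasmic library on log axes, double knockdown (orange) on the left and siGFP (blue) on the right, with lines joining libraries of the same replicate number. Each gene but Ptbp2 shows 2 groups that do not overlap.

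Genes of the cortical actin network and of adhesion, which shape the cell under its membrane, had a median log2 difference of 0.01, yet 5 of 31 tested members were lower and 1, Zyx, was higher. Among them were a filamin, a pair of formins and a scaffold. Fmnl3, a formin that elongates actin filaments, had 3.07, 3.14 and 1.98 TPM in double knockdown cytoplasm, against 13.7, 12.9 and 14.2 TPM in siGFP. The tight siGFP values and the lack of overlap gave a log2 difference of -1.98 (SE 0.17, adjusted p = 3.36e-08, and 5.61e-05 without the block). Flna, filamin A, which crosslinks actin and has an exon repressed by PTBP1, had 25.6, 20.7 and 19.3 TPM in the double knockdown against 60.4, 71.7 and 53.3 TPM in siGFP, a log2 difference of -1.46 (SE 0.24, adjusted p = 0.000343, and 0.0167 without the block). For Flna, as for Fmnl3, the groups did not overlap. Iqgap1, a scaffold that ties actin to adhesion, had 3.41, 8.59 and 5.85 TPM in the double knockdown and 11.6, 27.7 and 20.2 TPM in siGFP (log2 difference -1.57, adjusted p = 4.07e-06, and 0.00363 without the block). Fhod1, a formin of stress fibres, had 3.94, 3.49 and 2.64 TPM in the double knockdown and 10.4, 11.4 and 10.2 TPM in siGFP (log2 difference -1.43, adjusted p = 1.98e-05, and 0.00180 without the block). Outside that list, Lima1 (EPLIN, an actin bundler) and the membrane myosin Myo1d were also lower, by -1.70 and -1.67 log2 units (adjusted p = 4.99e-07 and 7.99e-08, and 0.130 and 1.42e-05 without the block). Members such as Vcl, vinculin, whose log2 difference was 0.67 (SE 0.26), and Vim, vimentin, with 0.39 (SE 0.23), were not called.

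Synapse genes were the next group of increases described. Of 23 tested members of a list of 33 synapse genes, 8 were higher and 0 lower, with a median log2 difference of 0.41; without the block 4 were called higher and 0 lower. Vamp2, a SNARE protein of synaptic vesicles, had 42.4, 58.4 and 64.3 TPM in the double knockdown against 13.2, 20.1 and 16.2 TPM in siGFP, with no overlap (log2 difference 1.68, SE 0.18, adjusted p = 1.22e-06, and 0.00104 without the block). Its paralog Vamp1 had 2.21, 3.29 and 3.25 TPM in the double knockdown and 0.71, 1.24 and 1.11 TPM in siGFP (log2 difference 0.95, adjusted p = 0.000764, and 0.149 without the block). Cnih3, an auxiliary subunit of AMPA receptors, had 3.57, 2.78 and 2.12 TPM in the double knockdown and 0.20, 0.15 and 0.13 TPM in siGFP, a log2 difference of 1.70 (SE 0.19, adjusted p = 3.41e-06, and 0.000413 without the block). The controls were thus close to undetected, and all 3 double knockdown libraries stood above 2 TPM. Prrt2, a presynaptic release protein, was higher by 1.38 log2 units (adjusted p = 9.93e-05, and 0.00834 without the block). Gabbr1, a GABA-B receptor subunit with a PTBP1-repressed exon, was higher by 1.01, Atp6v1g2, the brain form of a vacuolar proton pump subunit, by 1.03, and Sv2a, a synaptic vesicle glycoprotein, by 0.92. Their adjusted p values were 0.00285, 0.000582 and 0.00379, and without the block 0.0754, 0.104 and 0.0723. Other vesicle genes were not called: Syp, synaptophysin, had a log2 difference of -0.21 (SE 0.19) and Syn1, synapsin 1, of -0.10 (SE 0.24).

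A list of 17 genes with exons or introns known to be under PTBP1 control, which overlaps those above, had 6 members higher and 3 lower, with a median log2 difference of 0.23. It holds Vamp2, Sv2a, Gabbr1 and Tpm1, and also Kif5a, a neuronal kinesin heavy chain. Kif5a had 5.81, 12.2 and 9.16 TPM in double knockdown cytoplasm and 2.35, 4.31 and 3.50 TPM in siGFP, with no overlap, and a log2 difference of 1.17 (SE 0.16, adjusted p = 3.21e-05, and 0.108 without the block). The 3 lower members were Flna, Tpm2 and Ptbp2, the last being itself a target of the siRNA. The remaining 8, Dlg4, Src, Actn1, Pkm, Clta, Cltb, Fgfr2 and Bak1, had log2 differences between -0.31 for Actn1 and 0.40 for Dlg4. A gene total does not record which exons are included, so these values bear only on how much RNA there was. Without the block 2 members were called higher and 1 lower. The list was written with earlier results of these data known and is not independent evidence.

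Early neural genes were higher in part. Of 10 tested neural progenitor genes, 2 were higher and 0 lower, with a median log2 difference of 0.40. None of the 10 was called without the block or with all replicate 3 libraries left out. Sox1, a transcription factor of the neural plate, had 1.26, 4.37 and 5.26 TPM in the double knockdown and 0.49, 0.78 and 1.26 TPM in siGFP, with a log2 difference of 1.22 (SE 0.21, adjusted p = 0.000688, and 0.297 without the block). The lowest double knockdown value equalled the highest control value. Sox3, its close relative, was at 14.9, 13.4 and 14.6 TPM in the double knockdown and 6.09, 4.29 and 6.61 TPM in siGFP, without overlap (log2 difference 1.21, adjusted p = 0.000768, and 0.0989 without the block). Pax6 did not follow, with a log2 difference of -0.14 (SE 0.17). Of 19 tested genes of the neuronal cytoskeleton and neuronal differentiation, 3 were higher and 0 lower, with a median of 0.10: Kif5a, Crmp1 (0.62, adjusted p = 0.0157) and Rbfox3 (0.68, adjusted p = 0.0206). Crmp1 mediates semaphorin signals and Rbfox3 is the neuronal nuclear antigen NeuN. The call of Rbfox3 was lost with the GC correction (adjusted p = 0.147), and 0 members were called without the block. Without siGFP replicate 1 or double knockdown replicate 2 the 3 became 1; Crmp1 lost its call without either, and Rbfox3 without any of 3 single libraries.

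Pluripotency genes tended lower. Of 26 tested, 7 were lower and 1, Gbx2, was higher, with a median log2 difference of -0.25. Zfp42 (Rex1), a marker of the naive state, had 68.6, 246 and 276 TPM in double knockdown cytoplasm and 194, 409 and 526 TPM in siGFP. Its groups overlapped although each pair fell, with a log2 difference of -1.05 (SE 0.19, adjusted p = 0.000983, and 0.755 without the block). Nanog, a core pluripotency factor, had 30.4, 95.2 and 108 TPM in the double knockdown and 116, 128 and 170 TPM in siGFP, with no overlap (log2 difference -0.99, SE 0.24, adjusted p = 0.0155, and 0.278 without the block). Without double knockdown replicate 1 the log2 difference of Nanog was -0.47, and its call was lost without that library, siGFP replicate 1 or siGFP replicate 3 (adjusted p up to 0.0733). Klf4, a factor of naive pluripotency, fell by 0.89 log2 units (adjusted p = 0.00619, and 0.525 without the block), and Tcl1, a kinase cofactor, fell by 0.74 (adjusted p = 0.0109, and 0.797 without the block). The core factors Pou5f1, Sox2 and Esrrb were not called, with log2 differences of 0.16 (SE 0.20), -0.35 (SE 0.20) and -0.23 (SE 0.17). Pou5f1, Oct4, which marks embryonic stem cells, was abundant in every library, at 2297, 1235 and 1475 TPM in the double knockdown and 1580, 1321 and 1441 TPM in siGFP. None of the 26 was called without the block, and 1 higher and 10 lower with the GC correction. With all replicate 1 libraries left out 1 was higher and 8 lower, with those of replicate 2 0 and 1, and with those of replicate 3 0 and 0. Of single libraries, 2 members were lower without siGFP replicate 3 and 3 without double knockdown replicate 1. Gbx2 lost its call without any of 4 single libraries, and Tcl1 and Prdm14 without any of 2. Dnmt3b, a de novo DNA methyltransferase of the formative state, was lower, at 127, 72.1 and 70.8 TPM in the double knockdown and 148, 183 and 173 TPM in siGFP (log2 difference -0.94, adjusted p = 0.00189, and 0.249 without the block).

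Markers of other cell types were measured beside these lists. Of 9 tested markers of primitive and visceral endoderm, 4 of primitive streak, mesoderm and muscle and 5 of fibroblasts, 0 were called. Summed over all members of each of these lists, tested or not, levels were 48.3 to 91.1, 11.8 to 15.6 and 31.5 to 44.9 TPM in double knockdown cytoplasm. In siGFP they were 53.3 to 80.6, 9.34 to 10.6 and 26 to 50 TPM. The endoderm marker Ttr and the fibroblast marker Lum were listed at 0 in all 6 libraries, and Myf5 and Afp stayed under 0.1 TPM. Of 9 tested trophoblast genes Cdx2 was higher and Tfap2c lower, by 0.90 and -0.72 log2 units, and neither was called without the block (adjusted p = 0.683 and 0.509). Tfap2c lost its call without any of 4 single libraries, and Cdx2 lost its call with all replicate 1 libraries left out (adjusted p = 0.0640). In bulk cytoplasm fewer cells of a type and less RNA in each cell cannot be told apart.

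**Figure D3:**
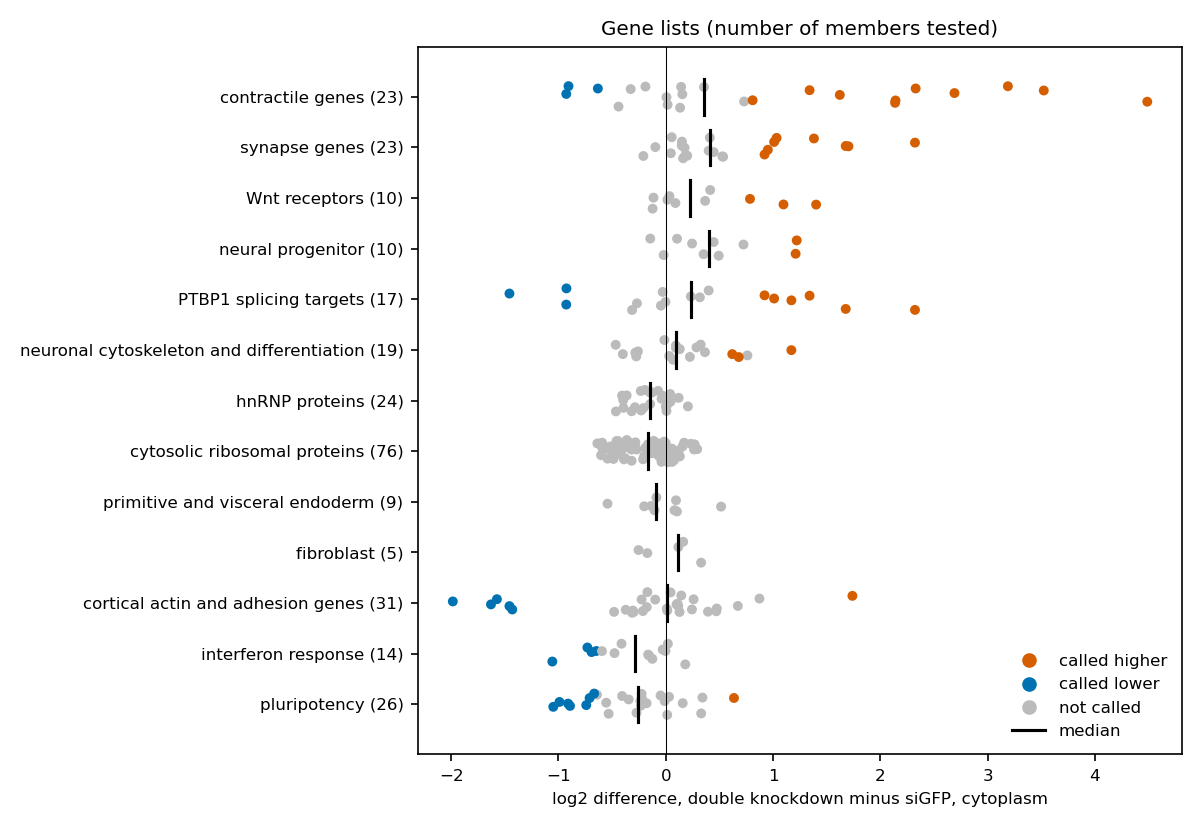
Log2 differences (double knockdown minus siGFP, cytoplasm) of the tested members of 13 gene lists, 1 point a gene, with the list median as a bar. Contractile genes reach furthest to the right and cortical actin genes furthest to the left. Synapse genes and PTBP1 splicing targets come next on the right, with the same highest value. The 76 ribosomal protein genes lie between -0.64 and 0.29.

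Several single enzymes and regulators were among the largest decreases. Tyms, thymidylate synthase, which makes the thymidine nucleotide for DNA synthesis, had 19.7, 40.6 and 56.7 TPM in double knockdown cytoplasm and 124, 133 and 144 TPM in siGFP. All 3 double knockdown libraries lay far below the narrow control range, and the log2 difference was -1.87 (SE 0.22, adjusted p = 4.72e-06, and 0.000716 without the block). It was the 1 gene called among 15 tested genes of deoxynucleotide synthesis, whose median log2 difference was -0.21. Mov10, an RNA helicase that works with Argonaute, had 47.2, 26.8 and 20.1 TPM in the double knockdown and 87.0, 108 and 91.7 TPM in siGFP, with no overlap (log2 difference -1.66, SE 0.19, adjusted p = 3.52e-06, and 0.00866 without the block). Of the other 12 tested genes of the microRNA machinery only Tnrc6b, a GW182 scaffold, was called, and it was higher by 1.12 (adjusted p = 0.000982, and 0.190 without the block). Pgm1, a phosphoglucomutase, Dhtkd1, a mitochondrial dehydrogenase subunit of lysine breakdown, Abhd14b, a hydrolase, and Stx3, a syntaxin of apical and ribbon synapse exocytosis, were lower by -1.72, -1.65, -1.51 and -1.68. Each was called without the block as well, with adjusted p of 0.0341, 0.0173, 0.00311 and 0.0438. Zfp969, a zinc finger gene, was lower by -1.54 (adjusted p = 0.000372, and 0.00311 without the block), at 1.25, 0.68 and 0.21 TPM in the double knockdown and 3.45, 4.73 and 3.45 TPM in siGFP.

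Among increases outside the lists, Hist1h1c, linker histone H1.2, had 30.5, 11.7 and 22.7 TPM in the double knockdown and 6.62, 3.32 and 5.59 TPM in siGFP (log2 difference 1.82, adjusted p = 7.99e-08, and 0.106 without the block). Plekho1, a regulator of actin capping, was higher by 1.57 (adjusted p = 5.15e-07, and 0.00754 without the block). The Wnt receptors Fzd6, Fzd2 and Fzd10, seven-pass membrane proteins, were higher by 1.40, 1.10 and 0.79 among 10 tested receptors with a median of 0.23, with adjusted p of 2.40e-05, 0.00241 and 0.0375. Fzd6 alone was called without the block (adjusted p = 0.00949), and Fzd10 was not called with the GC correction (adjusted p = 0.0670) or without any of 3 single libraries (up to 0.278). With all replicate 2 or all replicate 3 libraries left out 1 of the 3 was called. Interferon response genes had 4 of 14 tested members lower and 0 higher, with a median of -0.29. They were Isg15, a ubiquitin-like protein, Oas1a, an RNA sensor, Ddx58 (RIG-I) and Ifi35, with log2 differences of -1.06, -0.69, -0.73 and -0.65 and none called without the block. The 4 became 2 with all replicate 1 libraries left out, 1 with those of replicate 2 and 0 with those of replicate 3. They became 1 without siGFP replicate 3, without double knockdown replicate 3 or with a pseudocount of 0.1, and 2 without siGFP replicate 2 or double knockdown replicate 1. Ifi35 lost its call without any of 5 of the 6 libraries, Ddx58 without any of 4, Oas1a without any of 2 and Isg15 without 1. Snora47, Snora30 and Mir1949 also met the naming rule, but they are short transcripts whose TPM depends on how fragment length was corrected. Their calls were lost with all replicate 1 libraries left out (adjusted p = 0.126, 0.0756 and 0.208). Snora47 was listed at 0 in all 3 siGFP libraries and at 2.05 to 10.4 TPM in the double knockdown, and Snora30 was listed at 0 in all 3 double knockdown libraries and at 2.71 to 4.33 TPM in siGFP.

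Several lists showed no call in either direction. They were 24 hnRNP protein genes (median log2 difference -0.14), 12 SR protein and Tra2 genes (-0.24), 10 nonsense-mediated decay factors (-0.18), 8 YAP targets (0.26), 18 genes of the ATF4 stress response (-0.09), 15 endoplasmic reticulum chaperones (-0.17), 9 genes of the LIF and STAT3 pathway (0.09) and 76 cytosolic ribosomal protein genes (-0.16). In 21 glycolysis genes 2 were lower, Pfkp and Pfkl (-0.71 and -0.63), and in 24 cholesterol genes 2 were lower, Lss and Idi1 (-0.90 and -0.83). None of these 4 was called without the block. Pfkl lost its call without any of 4 single libraries, Idi1 without any of 3 and Pfkp without 1.

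**Figure D4:**
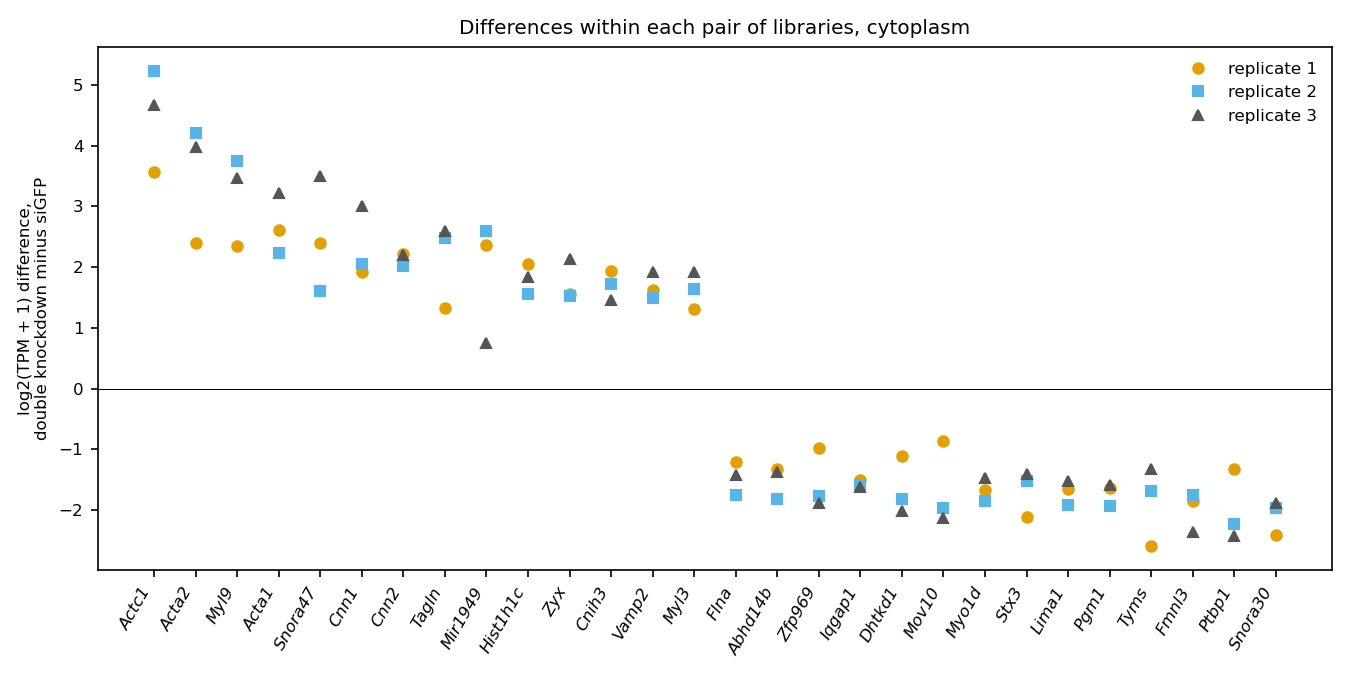
Differences in log2(TPM + 1) within each pair of libraries of the same replicate number (double knockdown minus siGFP, cytoplasm) for 14 of the 15 largest increases and 14 of the 15 largest decreases under the naming rule. All 28 genes differ in the same direction in the 3 pairs; Actc1, Acta2, Myl9 and Tagln rose least in replicate 1, and Tyms fell most there.

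The genes called in cytoplasm often differed in the same direction in the other fractions. In NP 194 genes were higher and 183 lower (2.88%, made up of 1.48% and 1.40%), and in CH 161 were higher and 52 lower (1.63%, made up of 1.23% and 0.398%). Of the 416 genes higher in CY, 385 had a positive difference in NP and 388 in CH, and 87 and 63 were called there. Of the 258 lower in CY, 253 had a negative difference in NP and 170 in CH, and 102 and 24 were called there. The median log2 difference of the higher genes was 0.36 in NP and 0.31 in CH, and that of the lower genes was -0.61 in NP and -0.18 in CH. Libraries of the 3 fractions with the same number deviated together, so the fractions are not independent replicates. TPM is relative to each fraction's own total.

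The knockdown effect itself differed between CH and CY for 86 genes (0.658% of those tested), tested as the difference of the 2 contrasts. For 73 of the 86 the effect was more positive in CH (0.558%) and for 13 more negative (0.0994%). Of the 86, 52 were lower in CY, 13 were higher in CY and 21 were not called in CY. Without the block 2 genes were called. Against NP the difference was called for 1 gene (0.00765%), and for 0 genes without the block.

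Several synaptic genes differed by fraction. Vamp2 differed between CH and CY, with 71.3, 95.0 and 91.2 TPM in double knockdown chromatin and 57.6, 89.2 and 71.4 TPM in siGFP chromatin, a log2 difference of 0.25 against 1.68 in CY (adjusted p of the difference 0.00382). Gabbr1 went further, with a log2 difference of -0.31 in CH against 1.01 in CY (adjusted p of the difference 0.0217). Atp6v1g2 ran the other way, with 2.27 in CH against 1.03 in CY (adjusted p of the difference 0.0139): it had 10.7, 16.8 and 17.6 TPM in double knockdown chromatin and 1.49, 2.31 and 3.17 TPM in siGFP chromatin. Cnih3 was higher by 1.43 in CH and 1.40 in NP against 1.70 in CY, and Myl3 by 1.54 and 1.64 against 1.62, with no called difference between fractions. Actc1, at 2.99 in CH, 3.75 in NP and 4.49 in CY, was called in all 3.

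Some genes were lower in CY and not on chromatin. Fmnl3 had 42.4, 45.4 and 35.8 TPM in double knockdown chromatin and 45.5, 43.2 and 34.1 TPM in siGFP chromatin, a log2 difference of 0.01 against -1.98 in CY (adjusted p of the difference 2.34e-05). Flna had 877, 657 and 1034 TPM in double knockdown chromatin and 1155, 466 and 776 TPM in siGFP chromatin, a difference of 0.17 against -1.46 in CY (adjusted p of the difference 0.0155). Both were lower in NP, by -1.35 and -1.57. For 7 genes lower in CY the chromatin value was called higher: Ska1, Stx3, Aldh9a1, Galm, Cyp20a1, Tpm2 and Taok3. Ska1, a kinetochore protein of mitosis, had 0.97, 3.47 and 2.90 TPM in double knockdown cytoplasm and 4.36, 6.99 and 8.43 TPM in siGFP cytoplasm, but 35.9, 75.02 and 55.3 TPM in double knockdown chromatin and 10.8, 21.8 and 22.4 TPM in siGFP chromatin. Its log2 difference was -1.19 in CY and 1.55 in CH, and their difference had the smallest adjusted p of all (3.76e-07). Stx3 had 80.2, 133 and 135 TPM in double knockdown chromatin and 53.5, 82.6 and 62.2 TPM in siGFP chromatin, a difference of 0.79 against -1.68 in CY (adjusted p of the difference 1.71e-05). Tpm2 had 52.4, 92.0 and 68.6 TPM in double knockdown chromatin and 33.5, 35.9 and 31.9 TPM in siGFP chromatin, 1.02 against -0.93 in CY (adjusted p of the difference 0.00204). Ptbp1 itself was lower by -0.82 in CH and by -1.90 in NP against -1.99 in CY (adjusted p of the difference between CH and CY 0.0425). Ska1 and the other 4 genes of the 7 that are not described with values lie outside the naming rule and were picked after their values were seen.

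**Figure D5:**
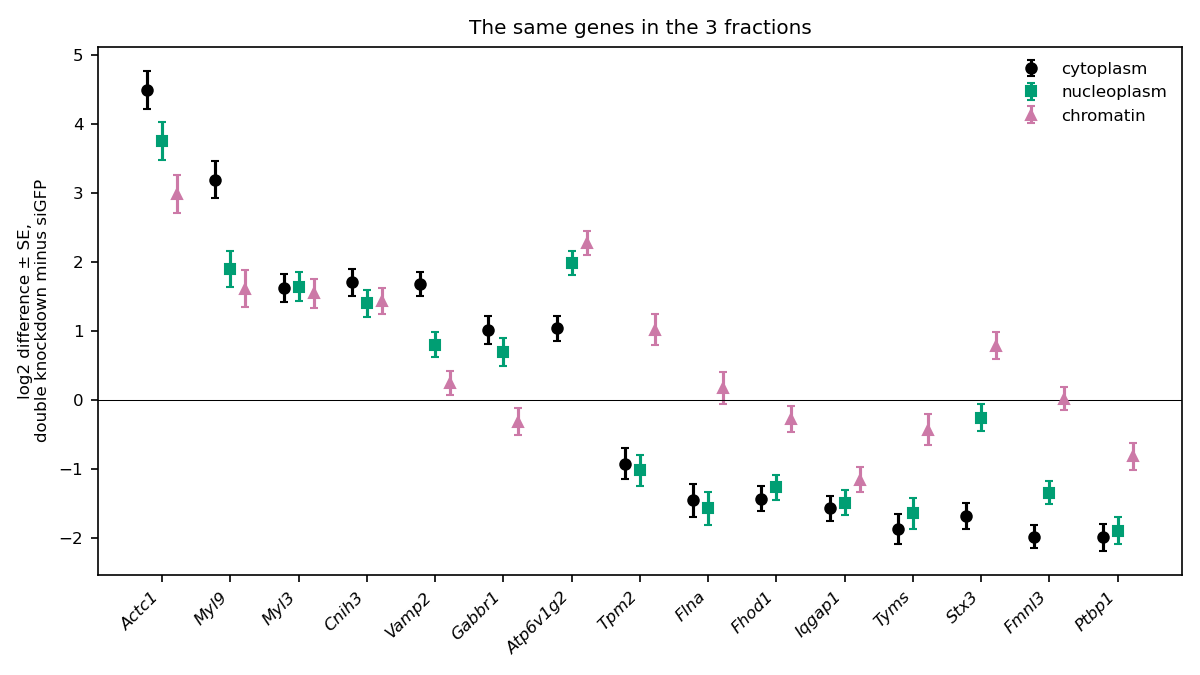
Log2 difference ± SE (double knockdown minus siGFP, limma) of 15 genes in cytoplasm (black circles), nucleoplasm (green squares) and chromatin (pink triangles). Vamp2 drops towards 0 on chromatin while Myl3 and Cnih3 do not, and Tpm2 and Stx3 are below 0 in cytoplasm and above 0 on chromatin.

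Cells given Ptbp1 siRNA alone were compared against the same siGFP libraries, so the 2 comparisons share their controls and their values are given side by side only. In siPTBP1 CY 314 genes were called higher and 119 lower (3.31%, made up of 2.40% and 0.910%). The log2 differences for the double knockdown and then for siPTBP1 were 4.49 and 4.68 for Actc1, 3.19 and 3.48 for Myl9, 1.68 and 1.62 for Vamp2, -1.98 and -2.09 for Fmnl3 and -1.87 and -1.29 for Tyms. Tested directly, the double knockdown differed from siPTBP1 in CY for 1 gene, Ptbp2 (0.00765% of genes), with a log2 difference of -1.13 (adjusted p = 0.00245). Against siGFP, Ptbp2 had a log2 difference of 0.20 (adjusted p = 0.593) in siPTBP1 cells. In the fit with the GC correction, and in the separate fit without the block, 0 genes were called. A p that misses the threshold does not show that the 2 treatments act alike.

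Called genes differed from the rest in measures that the comparison did not use. Protein-coding genes called higher (392) had a median GC content of 55.2% in their longest transcript, against 47.9% for those called lower (238) and 50.2% for those not called (11022). Their median number of exons was 6, against 10 among the lower and 8 among those not called, and their median transcript length was 2942 nt, against 3132 and 3307 nt. GC content also went with the difference in the replicate 1 pair, as given above, and the part of that pair in these medians was not tested. An annotated nonsense-mediated decay transcript was present for 25.3% of the higher, 37.0% of the lower and 28.9% of the genes not called. For an annotated retained-intron transcript the shares were 49.2%, 55.5% and 59.9%, so both called groups were below the rest.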

How the data were processed

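The authors deposited 1 table of TPM per gene for 27 libraries of polyA+ RNA from E14 cells (9 groups of treatment and fraction, 3 libraries each). Per the submitters' processing notes, STAR and kallisto were used on mm10; versions and annotation release are not given in the sources used here. TPM keeps no depth, so no counting interval is given, and a 0 may stand for a gene that could not be estimated.

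Gene types, lengths and GC content came from GENCODE M21 (53274 of 53379 IDs matched). The 26 symbols turned into dates were restored by ID. limma 3.58.1 in R 4.3.3 was fitted on log2(TPM + 1) over all 27 libraries, with 9 group means and replicate number as a block (16 residual degrees of freedom), trend and robust settings, two-sided, with Benjamini-Hochberg adjustment over all genes tested. The alternatives were other blocks, pseudocounts, filters, scalings and left-out libraries, and a GC correction.

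The labels do not say what a replicate number marks. Deviations from group means correlated at 0.310 or more (median 0.597) over all 108 same-number pairs, against a median of -0.411 for libraries sharing neither number nor group, and all 27 libraries correlated best with their own number. Pairing by number rests on this correlation alone.

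Genes were named by a rule: called, no overlap, mean of at least 1 TPM and a regular symbol, the 15 largest differences and 5 smallest adjusted p in each direction, all PTB family and PTBP1 target genes, and up to 6 called members of each other list. The 40 lists, and the members of the comparison, were chosen with earlier results of these data known. Values of 2 genes that met the rule are not reported here. Lists without described values had at most 2 members called.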

Additional observations from a re-analysis of the deposited data

Results flagged for a closer look

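The results below were set aside because the effect of the double knockdown, tested as a difference of 2 contrasts in limma, was not the same in 2 fractions. All fractions come from the same numbered replicates, and in the fit without the block 2 genes in all were called for CH against CY. The values are the log2 difference (double knockdown minus siGFP) in CH minus that in CY, with the adjusted p of that difference.

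For some genes higher in cytoplasm the effect was smaller on chromatin, and for Gabbr1 it pointed down there (-0.31, not called). The effect in CH minus that in CY was -1.43 for Vamp2 (adjusted p = 0.00382), -1.32 for Gabbr1 (0.0217), -1.58 for Myl9 (0.0485) and -0.93 for Plekho1 (0.0485). The exception among the named genes was Atp6v1g2, at 1.24 (0.0139), whose effect was larger on chromatin.

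Genes lower in cytoplasm were less lowered, level or higher on chromatin. The effect in CH minus that in CY was 2.47 for Stx3 (1.71e-05), 2.28 for Dhtkd1 (2.21e-05), 2.00 for Fmnl3 (2.34e-05), 1.94 for Tpm2 (0.00204) and 1.85 for Abhd14b (2.69e-05). It was 1.63 for Flna (0.0155), 1.44 for Tyms (0.0244), 1.17 for Ptbp1 (0.0425), 1.16 for Fhod1 (0.0340), 1.12 for Rbl1 (0.0115) and 0.90 for Myo1d (0.0417). Zfp969, at 1.54 (0.0393), was listed at 0 in every chromatin library, so its value is its cytoplasmic difference with the sign turned.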

How the results depend on the processing

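The counts in cytoplasm depended most on the replicate number. Against 416 higher and 258 lower genes with the replicate block, 38 and 29 were called with no replicate block, 1265 and 583 with the block set within each fraction, 177 and 115 from the cytoplasmic libraries alone, and 56 and 39 from the 6 libraries alone. Under quantile normalization 415 genes were lower, under median-ratio scaling 429 and under the GC correction 451, chosen after seeing the data. Leaving out 1 library gave 157 to 555 higher and 122 to 385 lower genes. The share of higher genes among those called, 61.7% in all, then ran between 44.5% without siGFP replicate 1 and 73.8% without double knockdown replicate 1. Leaving out all libraries of 1 replicate number, which left 8 residual degrees of freedom against 16, gave 47 to 501 higher and 32 to 277 lower. Of these the lowest counts came without replicate 3, and the 89 and 62 without replicate 2 were next. For the difference of effects between CH and CY, 86 genes became 2 with no block and 204 with the block within fraction. They became 34 to 84 with 1 library left out and 1 to 137 with a whole replicate number left out. Between NP and CY, 1 became 0 with no block, with the filter above 0 or without the trend and robust settings. It became 2 with median-ratio scaling or the GC correction, and 4 with the block within fraction or a pseudocount of 0.1. It was 0 to 3 with 1 library left out and 1 to 6 with a whole replicate number left out. Between the double knockdown and siPTBP1, 1 became 0 with no block, a pseudocount of 5 or the GC correction. It became 2 with the block within fraction, a pseudocount of 0.1 or the filter above 0. It was 1 to 2 with 1 library or a whole replicate number left out.

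Of the 76 named genes called, 26 were also called without the block, 70 with the GC correction, and 49 without any 1 of the 6 libraries. Sign changes were in uncalled genes, all near 0 but Bak1 (0.2341). Clta (-0.0022) was 0.0018 with median-ratio scaling, and -0.1403 to 0.1035 with 1 library or a whole replicate number left out. Fgfr2 (-0.0287) was 0.0025 with the GC correction, and -0.2698 to 0.2903 with 1 library or a whole replicate number left out. With 1 library or a whole replicate number left out, Src ranged between -0.2065 and 0.0664 and Bak1 between -0.0133 and 0.4255. The cause was not tested. TPM keeps no read depth, so precision at low levels is unknown.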
